A study of Homo sapiens with 15 samples.

Results

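The 45 genes described here are needed for the G1/S transition and for DNA replication. They were listed by symbol and looked up in the deposited count table of a HepG2 RNA-seq study. All 45 were among its 35012 gene symbols, and all 45 passed the filter on low counts that left 14621 genes for testing. HepG2 is an established human liver cancer cell line. Its cells carried 1 of 4 lentiviral hairpin treatments: an shRNA against BRG1 (4 libraries), an shRNA against BRM (3 libraries), both shRNAs (double knockdown, 4 libraries), or a non-silencing shRNA (NS, 4 libraries). BRG1 (gene SMARCA4) and BRM (gene SMARCA2) are the alternative ATPase subunits of SWI/SNF chromatin remodelling complexes. In all 4 groups, controls included, the cells had been exposed to virus and polybrene, selected with puromycin and collected 5 days after transduction. The labels give neither the hairpin sequences nor whether replicates were separate cultures, so p-values measure the spread between these libraries, which may be technical.

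Origins of replication are licensed in G1, when the origin recognition complex, CDC6 and CDT1 load the MCM2-7 helicase onto DNA. At the start of S phase CDC45 and the GINS complex join the helicase, primase and DNA polymerase alpha lay down primers, and polymerases delta and epsilon extend them with the sliding clamp PCNA. Many of these genes are transcribed in late G1 under E2F transcription factors, which the retinoblastoma family of pocket proteins holds back until cyclin-dependent kinases inactivate it. Their mRNA is therefore higher in cycling cells than in cells at rest. In RNA from bulk cultures, fewer cycling cells and less of these mRNAs per cell cannot be told apart.

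The libraries held 11500149 to 27187991 counts in total, and the smallest count of any of the 45 genes in 1 library was 18. SMARCA4 averaged 27.8 ± 2.32 CPM (counts scaled to the TMM-adjusted library total, SD) in BRG1 libraries and 46.2 ± 6.09 CPM in double libraries, against 307 ± 6.99 CPM in NS libraries. SMARCA2 averaged 4.38 ± 2.22 CPM in BRM libraries and 2.57 ± 0.299 CPM in double libraries, against 39.2 ± 4.05 CPM in NS libraries. Libraries numbered 1 and 2 (here the low-numbered set, 8 libraries) stood apart from those numbered 3 and 4 (the high-numbered set, 7 libraries, 1 of them BRM). Mitochondrially encoded genes took 4.97% to 8.33% of counts in the low-numbered set and 1.33% to 3.55% in the high-numbered set. The labels do not say what the sets share, so each comparison of the 45 genes below is also given within each set. For the other gene lists the values are pooled over the sets unless stated. The defining hepatocyte markers were present in every group: the summed level of 8 of 8 was 5557 to 18521 CPM in BRG1 libraries, 47795 to 51901 CPM in BRM libraries, 11023 to 25232 CPM in double libraries and 23872 to 36944 CPM in NS libraries. The sum of 4 cholangiocyte markers was 2879 to 5016 CPM in BRG1 libraries, 515 to 1028 CPM in BRM libraries, 1295 to 2776 CPM in double libraries and 1023 to 1505 CPM in NS libraries. Stromal markers (5 genes) summed to 120 to 295 CPM in BRG1 libraries, 123 to 214 CPM in BRM libraries and 89.97 to 139 CPM in double libraries, against 61.5 to 118 CPM in NS libraries. Blood and endothelial markers (6 genes) summed to 3.09 to 9.77 CPM over all libraries, with HBB at 0 in all BRG1, BRM and double libraries and KDR at 0 in all BRM, double and NS libraries. Their part in the results on replication genes was not tested.

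Many of the replication genes were lower after BRG1 knockdown. Against NS, 23 of 45 fell and none rose at an adjusted p under 0.05 (edgeR quasi-likelihood test, Benjamini-Hochberg over all 14621 genes), where 9.97% of all genes tested fell and 12.5% rose. The median log2 fold change of the 45 was -0.89, against 0.02 over all genes, and 43 of the 45 values lay below 0. In 27 of the 45 genes every BRG1 library was lower than every NS library, which held for 13.1% of all genes tested. For BRM knockdown none of the 45 was called in the fit of all libraries (13.9% of all genes were called in either direction, 6.26% lower and 7.66% higher). With the replicate set as a term 7 were called, 6 higher and 1 lower, where 18.3% of all genes were higher and 13.7% lower. After double knockdown 7 genes fell and 1 rose, with 9.9% of all genes called lower and 11.8% higher, and the median was -0.47, against 0.02 over all genes. In 17 genes every double library was lower than every NS library, as in 12.8% of all genes. Leaving out any 1 library kept 20 of the 23 calls for BRG1 against NS. The others were CDC45, lost without BRG1 1, BRG1 2, BRM 1, NS 1, NS 3 or NS 4 (-1.04 to -0.78), MCM10, lost without BRG1 1, NS 3 or NS 4 (-0.88 to -0.87), and ORC6, lost without BRG1 2 or NS 1 (-0.95 to -0.88). For double against NS, MCM3, GINS4 and PRIM1 stayed called with any 1 library left out. FEN1 and POLA1 were lost without double 3, NS 3 or NS 4 (-0.76 to -0.72 and -0.62 to -0.57), UHRF1 without double 1, 2 or 3, NS 3 or NS 4 (-0.87 to -0.70), and RFC5 without double 1, 2 or 3 or NS 1, 3 or 4 (-0.72 to -0.55).

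Library by library, the 45 genes were lowest after BRG1 knockdown in the low-numbered set. For each library, the median difference in log2(CPM + 1) of the 45 genes from the mean of the NS libraries of its own set was -1.12, -1.39, -0.67 and -0.59 in BRG1 libraries 1 to 4. It was 0.16, 0.04 and -0.11 in BRM libraries 1 to 3, and -0.29, -0.33, -0.86 and -0.34 in double libraries 1 to 4. No BRG1 library had more than 2 of the 45 genes above the NS mean of its set. Within the low-numbered set the summed level of the 45 genes was 1288 to 1502 CPM in BRG1 libraries, 3793 to 3838 CPM in BRM libraries and 2906 to 2920 CPM in double libraries, against 3492 to 3701 CPM in NS libraries. Within the high-numbered set it was 2974 to 3162 CPM in BRG1 libraries, 5177 CPM in the BRM library and 2644 to 4034 CPM in double libraries, against 4640 to 5159 CPM in NS libraries. BRG1 libraries lay below NS libraries in both sets, and by more in the low-numbered set.

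**Figure D1:**
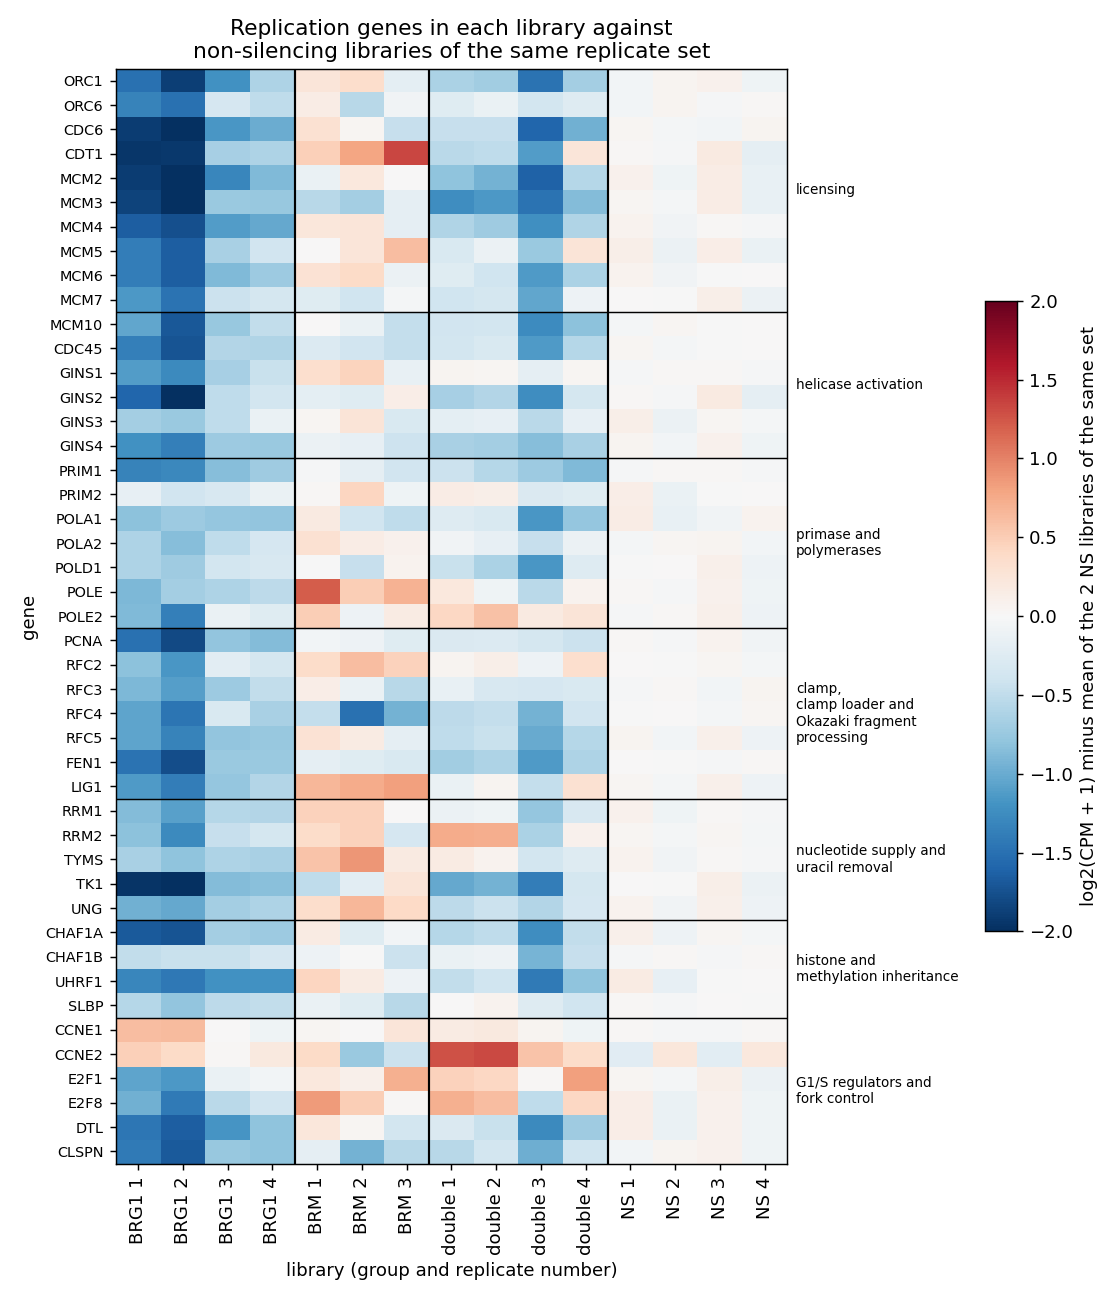
Each row is a gene, grouped by role, and each column a library. Colour gives log2(CPM + 1) minus the mean of the 2 NS libraries of the same replicate set, from -2 (blue) to 2 (red). The BRG1 columns are blue in nearly every row, most strongly in BRG1 libraries 1 and 2 (medians -1.12 and -1.39), the BRM columns are mixed, and CCNE2 in double libraries 1 and 2 is the highest in its row.

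Promoters of these genes are shown because most of the 45 moved in the same direction, and E2F is the textbook regulator of the group. RefSeq windows on GRCh38.p14, from 250 bases before to 50 bases after the transcription start, were found for 40 of the 45 by symbol (MCM4, MCM5, GINS4, CCNE2 and E2F8 had none). An E2F-type motif (TTTCCCGC, TTTCGCGC, TTTGCCGC or TTTGGCGC on either strand, in which 2 variants may overlap) was in the windows of 22 of 40 (55%), against 1090 of 27305 symbols in the table (3.992%). The 150 bases before the start are printed for 6 genes, 5′ to 3′ on the gene's strand, with E2F-type motifs in capitals. PCNA, MCM6, POLA1 and CHAF1A fell after BRG1 knockdown, while E2F1 and PRIM2 were not called (E2F1 fell in the fit with the replicate block).
PCNA (chr20:5126623-5126772, minus strand): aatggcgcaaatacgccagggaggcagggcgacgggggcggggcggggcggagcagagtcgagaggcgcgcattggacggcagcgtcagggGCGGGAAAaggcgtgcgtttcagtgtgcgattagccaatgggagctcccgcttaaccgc
MCM6 (chr2:135876444-135876593, minus strand): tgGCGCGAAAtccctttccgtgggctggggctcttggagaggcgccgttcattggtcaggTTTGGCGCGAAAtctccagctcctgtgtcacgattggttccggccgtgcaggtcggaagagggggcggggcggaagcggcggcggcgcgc
POLA1 (chrX:24693768-24693917, plus strand): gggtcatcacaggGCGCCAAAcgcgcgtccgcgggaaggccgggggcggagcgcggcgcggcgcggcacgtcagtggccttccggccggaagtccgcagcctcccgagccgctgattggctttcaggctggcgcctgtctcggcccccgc
CHAF1A (chr19:4402490-4402639, plus strand): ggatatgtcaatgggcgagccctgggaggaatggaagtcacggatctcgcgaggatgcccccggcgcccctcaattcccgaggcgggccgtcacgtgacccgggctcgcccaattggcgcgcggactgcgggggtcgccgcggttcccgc
E2F1 (chr20:33686386-33686535, minus strand): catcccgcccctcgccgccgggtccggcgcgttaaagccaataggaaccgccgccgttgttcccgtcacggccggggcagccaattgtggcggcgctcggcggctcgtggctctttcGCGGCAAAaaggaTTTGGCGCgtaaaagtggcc
PRIM2 (chr6:57314655-57314804, plus strand): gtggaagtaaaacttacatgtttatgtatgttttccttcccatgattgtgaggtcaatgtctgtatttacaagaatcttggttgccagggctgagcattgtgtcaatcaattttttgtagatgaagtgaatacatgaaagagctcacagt
MCM6 held 3 E2F-type matches, 2 of them overlapping, E2F1 held 2, PCNA and POLA1 1 each, and CHAF1A and PRIM2 none.

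The E2F-type motif was in 12 of the 21 genes with a window that fell after BRG1 knockdown (57.14%) and in 10 of the 19 that were not called (52.63%). The CCAAT box, read on either strand, was in 24 of 40 genes (60%), against 39.72% of all symbols. It was in 17 of the 21 that fell (80.95%) and in 7 of the 19 not called (36.84%). That split follows the fit without the replicate block. With the block, a split added after the data were seen, 36 of the 40 fell, and CCAAT was in 23 of them (63.89%) and in 1 of the other 4, and the E2F-type motif in 21 (58.33%) and in 1 of the other 4. The CHR motif TTTGAA, typical of G2/M promoters, was in 2 of 40 (5%), against 18.17% of all symbols. These shares describe letters in a window, with no test of binding, and 9 genes had more than 1 window, any of which counted.

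**Figure D2:**
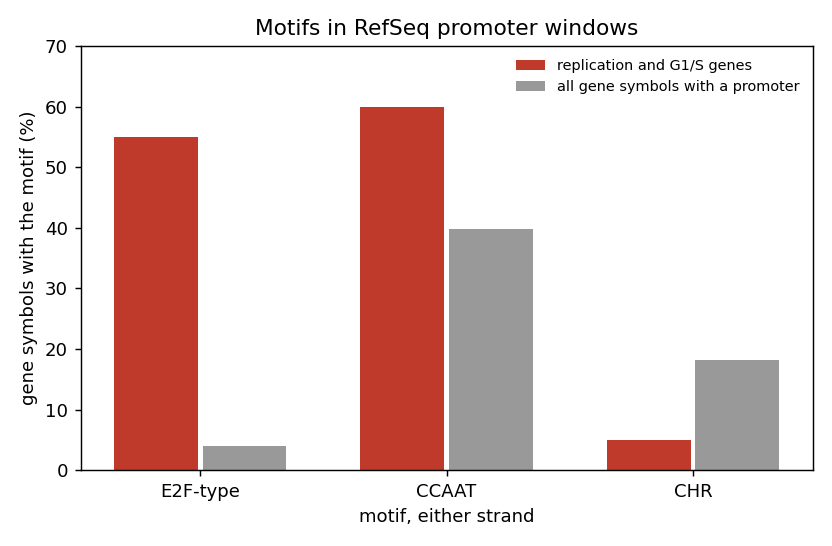
Bars start at 0 and give the share (%) of gene symbols whose RefSeq promoter window holds each motif on either strand, for the 40 replication and G1/S genes with a window (red) and for all 27305 symbols (grey). The E2F-type motif stands at 55% against 3.992%, CCAAT at 60% against 39.72%, and CHR at 5% against 18.17%. The symbols in grey were neither limited to the genes tested nor matched for base composition.

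Of the 10 licensing genes, 5 fell after BRG1 knockdown (CDC6, MCM3, MCM4, MCM6 and ORC6), 1 after double knockdown (MCM3) and none after BRM knockdown. Of all genes tested 9.97% fell after BRG1 knockdown, 9.9% after double knockdown and 6.26% after BRM knockdown. The 1 licensing gene that fell after double knockdown was thus near the share of all genes. MCM3 and MCM4 encode subunits of the MCM2-7 helicase. In order of replicate number, MCM4 had 63.98, 59.2, 135 and 144 CPM in BRG1 libraries, 239, 242 and 257 CPM in BRM libraries, 134, 124, 125 and 192 CPM in double libraries, against 215, 193, 297 and 288 CPM in NS libraries. All BRG1 libraries and all double libraries lay below every NS library, and the BRM libraries overlapped the NS libraries. The log2 fold change of MCM4 was -1.31 ± 0.28 (SE, adjusted p = 0.00413) for BRG1 against NS and -0.79 ± 0.28 (SE, adjusted p = 0.0585) for double against NS. MCM3 had 126, 107, 266 and 263 CPM in BRG1 libraries, 313, 287 and 395 CPM in BRM libraries, 194, 206, 159.5 and 245 CPM in double libraries, against 474, 446, 492 and 404 CPM in NS libraries (chromosome 6, 52264009 to 52284881, minus strand, GRCh38). Every knockdown library was lower in MCM3 than every NS library, with the BRM libraries highest among the knockdowns. The change in MCM3 was -1.25 ± 0.27 (SE, adjusted p = 0.00414) for BRG1, -0.45 ± 0.29 (SE, adjusted p = 0.354) for BRM and -1.18 ± 0.27 (SE, adjusted p = 0.00640) for double, each against NS in edgeR.

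The loader CDC6 fell by 1.42 ± 0.33 (SE, edgeR adjusted p = 0.00678) after BRG1 knockdown, the largest decrease among the called genes. CDC6 had 21.03, 17.1, 50.9 and 57.9 CPM in BRG1 libraries, 100.01, 83.5 and 83.9 CPM in BRM libraries, 58.5, 58.3, 37.9 and 58.99 CPM in double libraries, against 83.2, 78.7, 112 and 119.9 CPM in NS libraries. BRG1 and double libraries were all below the NS libraries. CDT1, MCM2, MCM5 and MCM7 were not called over all libraries, at adjusted p of 0.180 (MCM2) to 0.385 (MCM7), while within the low-numbered set their log2 fold changes were -2.01 (MCM2) to -1.31 (MCM7). With the replicate block all of them fell, at edgeR adjusted p of 0.000317 (MCM2) to 0.0104 (MCM7). MCM2, another subunit of the ring, had 35.5, 31.6, 151 and 204 in BRG1 libraries, 123, 156 and 378 in BRM libraries, 77.1, 69.7, 121 and 254 in double libraries, against 142, 127, 419 and 338 in NS libraries (CPM). Each BRG1 library was below the NS libraries of its own set, but BRG1 libraries 3 and 4 were above NS libraries 1 and 2. The pooled change of MCM2 was -1.28 ± 0.65 (SE, adjusted p = 0.180) in edgeR, and it was -2.01 within the low-numbered set (adjusted p = 3.0e-05) and -1.13 within the high-numbered set (adjusted p = 0.0504). ORC1, a subunit of the origin recognition complex, was not called, with a log2 fold change of -1.16 ± 0.48 (SE, adjusted p = 0.104). With the block the change of ORC1 was -1.34 ± 0.25 (SE, edgeR adjusted p = 0.00106).

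Among the 6 helicase activation genes, GINS1, GINS4, MCM10 and CDC45 fell after BRG1 knockdown (9.97% of all genes) and GINS4 after double knockdown (9.9%). GINS4 encodes a subunit of the GINS complex, which with CDC45 turns the MCM ring into an active helicase. GINS4 had 10.8, 9.67, 17.6 and 17.4 CPM in BRG1 libraries, 24.4, 23.6 and 22.04 CPM in BRM libraries, 16.5, 16.1, 15.98 and 18.6 CPM in double libraries, against 27.7, 25.5, 31.5 and 28.1 CPM in NS libraries. BRG1, BRM and double libraries were all below every NS library, and BRG1 libraries 1 and 2 were lowest. The log2 fold change of GINS4 was -1.02 ± 0.19 (SE, adjusted p = 0.00134) for BRG1 against NS, -0.27 ± 0.20 (SE, adjusted p = 0.431) for BRM against NS and -0.75 ± 0.19 (SE, adjusted p = 0.0103) for double against NS (edgeR). Its exons overlap those of other genes in GENCODE v29, and the strand setting of the counting is not given in the sources used here. GINS2 and GINS3 were not called, at -0.93 ± 0.37 (SE, adjusted p = 0.0908) and -0.50 ± 0.24 (SE, adjusted p = 0.155) for BRG1 against NS. With the replicate block both fell, at edgeR adjusted p of 0.0125 (GINS2) and 0.0208 (GINS3).

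Of 7 primase and polymerase genes, PRIM1 and POLA1 fell after BRG1 knockdown (9.97% of all genes) and again after double knockdown (9.9%). PRIM1 is the catalytic subunit of primase and POLA1 that of DNA polymerase alpha, which together make the primers of replication. PRIM1 had 6.47, 6.72, 9.31 and 10.4 CPM in BRG1 libraries, 17.5, 15.6 and 13.2 CPM in BRM libraries, 13.01, 11.7, 10.2 and 9.10 CPM in double libraries, against 17.5, 18.3, 17.99 and 17.2 CPM in NS libraries (chromosome 12, 56731596 to 56752373, minus strand, with exons overlapping HSD17B6). The BRG1 and double libraries lay below every NS library and 1 BRM library was in the NS range while the other two were below it. In edgeR PRIM1 changed by -1.11 ± 0.18 (SE, adjusted p = 0.000679) after BRG1 knockdown and by -0.69 ± 0.18 (SE, adjusted p = 0.0140) after double knockdown. POLA1 had 15.9, 16.96, 20.8 and 20.7 CPM in BRG1 libraries, 32.6, 21.5 and 25.3 CPM in BRM libraries, 23.8, 23.1, 15.6 and 20.9 CPM in double libraries, against 32.1, 25.7, 34.8 and 38.1 CPM in NS libraries. POLA1 was lower in every BRG1 and double library than in any NS library, with log2 fold changes of -0.82 ± 0.19 (SE, adjusted p = 0.00570) for BRG1 and -0.65 ± 0.19 (SE, adjusted p = 0.0217) for double. PRIM2, the regulatory primase subunit, was not called in any of the 6 pairwise comparisons, with a log2 fold change of -0.25 ± 0.17 (SE, adjusted p = 0.332) for BRG1 against NS.

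Of the 7 genes of the clamp, its loader and Okazaki fragment processing, PCNA, RFC3, RFC5 and FEN1 fell after BRG1 knockdown, and FEN1 and RFC5 after double knockdown. Of all genes 9.97% and 9.9% fell in these comparisons. PCNA had 141, 112, 189 and 178 CPM in BRG1 libraries, 381, 368 and 277 CPM in BRM libraries, 325, 329, 257 and 242 CPM in double libraries, against 401, 392, 344 and 313 CPM in NS libraries (chromosome 20, 5114953 to 5126626, minus strand). Every BRG1 library was below every library of the other groups, while double libraries 1 and 2 and BRM libraries 1 and 2 reached or passed the lowest NS value. The change in PCNA was -1.22 ± 0.19 (SE, adjusted p = 0.000433) for BRG1 against NS, a 2.33-fold decrease and the smallest adjusted p of the 45, and -0.33 ± 0.19 (SE, adjusted p = 0.243) for double against NS (edgeR). FEN1 is the nuclease that trims Okazaki fragments. FEN1 had 31.5, 25.2, 57.6 and 57.1 CPM in BRG1 libraries, 78.2, 75.2 and 77.8 CPM in BRM libraries, 54.4, 57.4, 43.6 and 62.6 CPM in double libraries, against 89.3, 88.7, 95.5 and 97.9 CPM in NS libraries (chromosome 11, 61792637 to 61797244, plus strand, with exons overlapping FADS2 and TMEM258). All 3 knockdown groups lay below NS in FEN1 without overlap, with log2 fold changes of -1.11 ± 0.23 (SE, adjusted p = 0.00285) for BRG1, -0.27 ± 0.25 (SE, adjusted p = 0.545) for BRM and -0.77 ± 0.23 (SE, adjusted p = 0.0254) for double. The clamp loader subunits RFC2 and RFC4 were not called against NS after BRG1 knockdown, at -0.59 ± 0.22 (SE, adjusted p = 0.0711) and -0.94 ± 0.32 (SE, adjusted p = 0.0503), nor was the ligase LIG1. With the replicate block RFC2, RFC4 and LIG1 fell, at edgeR adjusted p of 0.0123, 0.0115 and 0.000554.

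Among the 5 genes of nucleotide supply and uracil removal, UNG, RRM1 and TYMS fell after BRG1 knockdown, and none was called after double knockdown against NS. Of all genes 9.97% fell after BRG1 knockdown, and 9.9% fell and 11.8% rose after double knockdown. With the replicate block UNG and TK1 fell after double knockdown (edgeR adjusted p = 0.0101 and 0.0213). TK1 then also fell after BRG1 knockdown (edgeR adjusted p = 0.00141). UNG encodes the uracil-DNA glycosylase that removes uracil from DNA. UNG had 52.3, 49.8, 76.7 and 79.9 CPM in BRG1 libraries, 131, 164 and 163 CPM in BRM libraries, 71.1, 76.2, 81.7 and 97.8 CPM in double libraries, against 107, 98.02, 133 and 115 CPM in NS libraries (chromosome 12, 109097574 to 109110992, plus strand). BRG1 and double libraries were all below the NS libraries, and 2 of 3 BRM libraries were above all of them. The log2 fold change of UNG was -0.81 ± 0.18 (SE, adjusted p = 0.00538) after BRG1 knockdown and -0.47 ± 0.18 (SE, adjusted p = 0.0806) after double knockdown (edgeR). Thymidylate synthase, TYMS, makes the thymidine nucleotide. TYMS had 102, 91.6, 136 and 132 CPM in BRG1 libraries, 239, 297 and 236 CPM in BRM libraries, 182, 169, 161 and 174 CPM in double libraries, against 169, 154, 211 and 205 CPM in NS libraries. BRG1 libraries were lowest and BRM libraries highest, without overlap with NS on either side, while double libraries overlapped NS libraries. The change was -0.68 ± 0.16 (SE, adjusted p = 0.00769) for BRG1 and 0.48 ± 0.17 (SE, adjusted p = 0.0852) for BRM. TYMS exons overlap those of ENOSF1 and TYMSOS, so that its level is uncertain.

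Histone supply and methylation inheritance were represented by 4 genes. UHRF1, which recruits the maintenance DNA methyltransferase to replicated DNA, CHAF1A, a subunit of the histone chaperone CAF-1, and SLBP, the histone stem-loop binding protein, fell after BRG1 knockdown. UHRF1 fell after double knockdown. Of all genes 9.97% fell after BRG1 knockdown and 9.9% after double knockdown. UHRF1 had 38.9, 35.6, 69.4 and 69.5 CPM in BRG1 libraries, 131, 108 and 151 CPM in BRM libraries, 68.7, 73.2, 60.1 and 92.4 CPM in double libraries, against 109, 86.97, 162 and 163 CPM in NS libraries (chromosome 19, 4903080 to 4962154, plus strand). Every BRG1 library was below every NS library, whereas double library 4 was above NS library 2. The log2 fold change of UHRF1 was -1.29 ± 0.27 (SE, adjusted p = 0.00303) for BRG1 and -0.82 ± 0.26 (SE, adjusted p = 0.0374) for double against NS (edgeR). For BRG1 against NS it was -1.39 within the low-numbered set (adjusted p = 0.000213) and -1.27 within the high-numbered set (adjusted p = 0.00204). SLBP had 51.2, 44.1, 54.03 and 54.98 CPM in BRG1 libraries, 69.5, 64.4 and 52.8 CPM in BRM libraries, 76.9, 80.1, 65.4 and 59.1 CPM in double libraries, against 77.7, 75.4, 78.5 and 77.7 CPM in NS libraries. Every BRG1 library was below every NS library, with a log2 fold change of -0.60 ± 0.14 (SE, adjusted p = 0.00565), while double libraries 1 and 2 were within or above the NS range.

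The 6 G1/S regulators and fork control genes held the exceptions. DTL, a substrate receptor of the ubiquitin ligase that destroys CDT1 on chromatin, and CLSPN, the checkpoint adaptor claspin, fell after BRG1 knockdown. Of all genes 9.97% did. CLSPN had 13.9, 11.4, 21.7 and 20.9 CPM in BRG1 libraries, 33.7, 19.6 and 25.1 CPM in BRM libraries, 25.96, 29.7, 18.4 and 28.2 CPM in double libraries, against 36.99, 40.04, 39.8 and 35.04 CPM in NS libraries. BRG1 and double libraries lay below every NS library, as did the BRM libraries. The log2 fold change of CLSPN was -1.16 ± 0.23 (SE, adjusted p = 0.00230) for BRG1, -0.54 ± 0.25 (SE, adjusted p = 0.175) for BRM and -0.57 ± 0.23 (SE, adjusted p = 0.0904) for double (edgeR). The cyclins E, CCNE1 and CCNE2, which activate CDK2 at the G1/S transition, were the only genes of the 45 with a value above 0 for BRG1 against NS, at 0.31 ± 0.16 (SE, adjusted p = 0.177) and 0.37 ± 0.39 (SE, adjusted p = 0.573). CCNE2 had 3.39, 3.15, 2.13 and 2.55 CPM in BRG1 libraries, 3.14, 0.900 and 1.29 CPM in BRM libraries, 6.67, 6.95, 3.62 and 2.98 CPM in double libraries, against 1.70, 2.72, 1.66 and 2.60 CPM in NS libraries. All 4 double libraries were above every NS library, and double libraries 1 and 2 were highest of all 15. CCNE2 was the 1 gene of the 45 that rose after double knockdown, by 1.21 ± 0.39 (SE, adjusted p = 0.0401). That call was lost when any of 10 libraries was left out (BRG1 1, 2 or 4, double 1, 2 or 3, or any NS library), at 0.97 to 1.31. The transcription factors E2F1 and E2F8 were not called against NS after any knockdown in the fit of all libraries without the block.

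**Figure D3:**
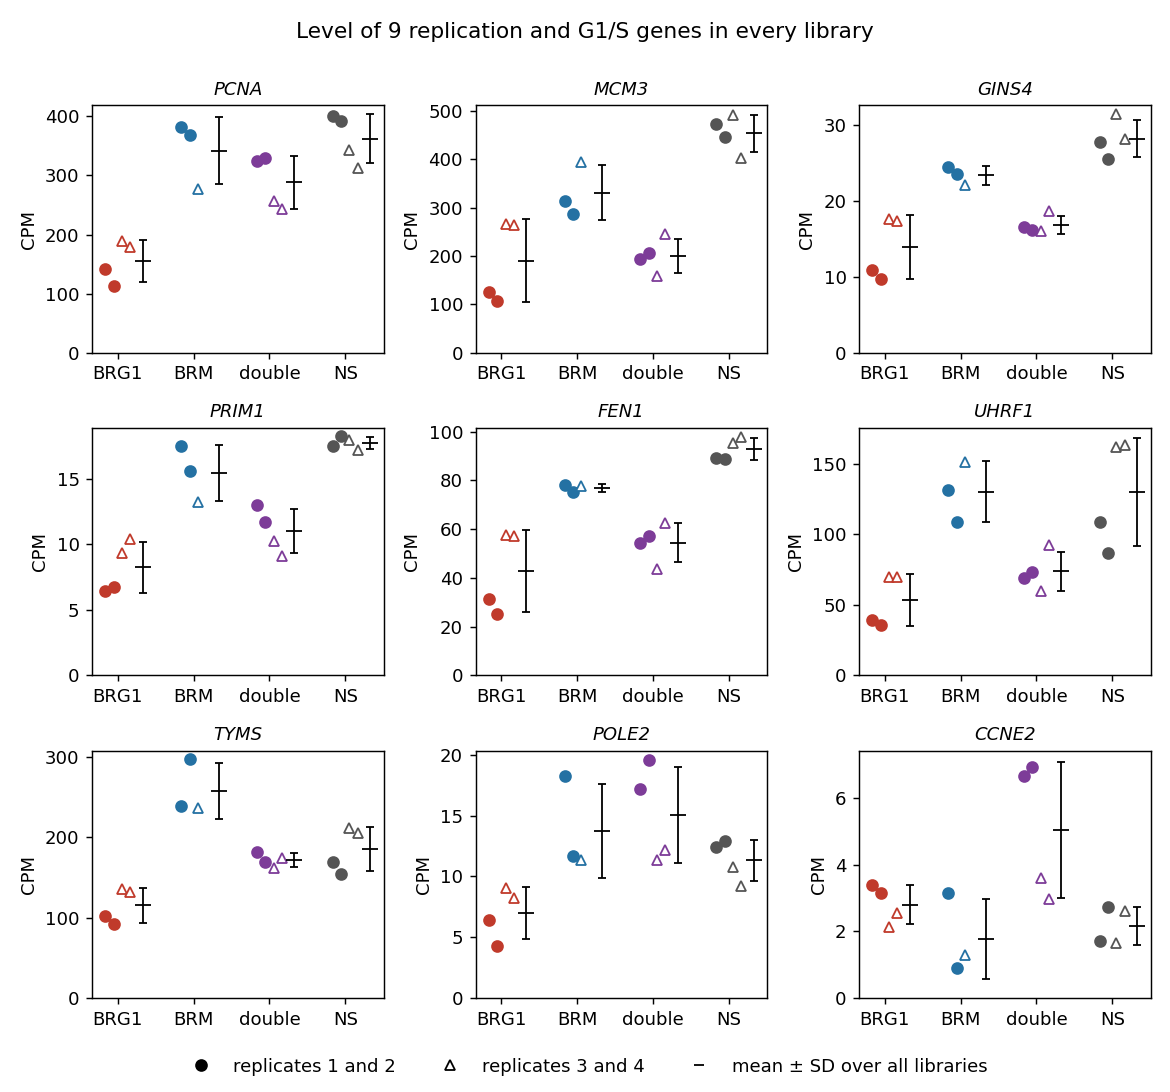
Level in CPM (linear axis from 0) of 9 genes in each of the 15 libraries, by group, with filled circles for replicates 1 and 2, open triangles for replicates 3 and 4, and the mean ± SD of all libraries of the group beside them. In 8 of the 9 genes every BRG1 library is below every NS library, and CCNE2, the exception, is highest in double libraries 1 and 2 (6.67 and 6.95 CPM).

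Levels per length differed widely between the genes. Per kilobase of the longest coding transcript (GENCODE v29, GRCh38), PCNA had the highest mean level, 114 CPM per kb in BRG1 libraries and 267 CPM per kb in NS libraries. MCM3 followed in NS libraries, with 59.4 CPM per kb in BRG1 libraries and 142 in NS libraries. CCNE2 was lowest, with 0.843 CPM per kb in BRG1 libraries and 0.652 in NS libraries. Exons of 19 of the 45 genes overlap those of another gene on either strand, among them MCM7 with AP4M1, RFC4 with EIF4A2, RRM1 with RRM1-AS1 and CCNE2 with INTS8. Reads inside such an overlap may not be told apart, and the strand setting of the counting is not given.

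After BRM knockdown none of the 45 was called by edgeR over all libraries, and none by DESeq2. At an unadjusted p under 0.05, 2 were lower (RFC4 and CLSPN) and 3 higher (POLE, TYMS and UNG). Of all genes 13.9% passed even the adjusted threshold, so these 5 of 45 did not exceed the share of all genes. The values ran from -0.83 ± 0.36 (SE, adjusted p = 0.144) for the clamp loader subunit RFC4 to 0.85 ± 0.70 (SE, adjusted p = 0.490) for CDT1, and the median was -0.08, against 0.03 over all genes. POLE, the catalytic subunit of DNA polymerase epsilon, had 29.5, 34.5, 53.4 and 57.5 in BRG1 libraries, 129.7, 78.8 and 135 in BRM libraries, 64.9, 52.7, 56.7 and 86.7 in double libraries, against 56.8, 54.7, 87.9 and 77.98 in NS libraries (CPM). BRM library 2 was inside the NS range and the other two were above it, and the change was 0.72 ± 0.28 (SE, adjusted p = 0.09996). In 6 genes every BRM library was lower than every NS library (10.8% of all genes), namely MCM3, CDC45, GINS4, FEN1, SLBP and CLSPN, and in RFC2 and TYMS every BRM library was higher (12.5% of all genes).

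Within the low-numbered set 8 genes rose after BRM knockdown and 1 fell, with 14.6% of all genes called higher and 13.1% lower. CDT1, GINS1, LIG1, POLE, RFC2, RRM1, TYMS and UNG rose, by 0.40 to 0.90 on the log2 scale, and MCM3 fell, at -0.62 (edgeR adjusted p = 0.0118). In the high-numbered set, where BRM has 1 library that is assumed to vary like the others, RFC3, RFC4 and SLBP fell and none rose (9.96% of all genes were lower). With the set as a term in the fit of all libraries, 6 rose and 1 fell, where 18.3% and 13.7% of all genes did.

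Double knockdown was compared with BRG1 knockdown directly. The groups differed in BRG1 as well as BRM: SMARCA4 itself was higher in double than in BRG1 libraries, at 46.2 ± 6.09 against 27.8 ± 2.32 CPM (SD), by 0.73 ± 0.16 (SE, adjusted p = 0.00858) in edgeR, and its part in the differences below was not tested. Against BRG1 knockdown, 6 of the 45 genes were higher after double knockdown and none lower, where 4.1% of all genes rose and 6.72% fell. The median log2 difference was 0.45, against 0.01 over all genes. The 6 were PCNA (0.89 ± 0.19 SE, adjusted p = 0.00747), the polymerase epsilon subunit POLE2, GINS1, TYMS, SLBP and the repressor E2F8 (1.19 ± 0.35 SE, adjusted p = 0.0428), all by edgeR. POLE2 had 17.2, 19.6, 11.4 and 12.1 CPM in double libraries, 6.39, 4.29, 9.01 and 8.25 CPM in BRG1 libraries, 18.2, 11.7 and 11.3 CPM in BRM libraries, against 12.4, 12.9, 10.8 and 9.20 CPM in NS libraries. Every double library was above every BRG1 library, and double libraries 1 and 2 were above all NS libraries too. POLE2 differed by 1.10 ± 0.26 (SE, adjusted p = 0.0136) between double and BRG1 libraries. GINS1 had 48.05, 47.1, 49.5 and 57.6 CPM in double libraries, 20.7, 18.5, 35.02 and 40.9 CPM in BRG1 libraries, 58.2, 63.4 and 50.6 CPM in BRM libraries, against 45.1, 47.01, 57.2 and 55.2 CPM in NS libraries. Double libraries exceeded BRG1 libraries without overlap and lay in the range of the NS libraries or just above it, and the difference was 0.81 ± 0.22 (SE, adjusted p = 0.0280). TYMS and SLBP, whose values are given above, differed by 0.57 ± 0.16 (SE, adjusted p = 0.0357) and 0.46 ± 0.14 (SE, adjusted p = 0.0419). Leaving out 1 library kept PCNA in every case. POLE2 was lost without double 2 (0.96), GINS1 and TYMS without BRG1 1, BRG1 2 or any double library (0.65 to 0.84 and 0.48 to 0.61), and SLBP and E2F8 without 12 and 11 of the 15 libraries. In 7 genes every double library was above every BRG1 library (7.77% of all genes), the 6 without E2F8 and, in addition, RFC2 and RFC3.

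The difference was larger in the low-numbered set. There, 38 of the 45 genes were higher in double than in BRG1 libraries and 1, CCNE1, was lower, with 12.6% of all genes called higher and 14.6% lower, and the median difference was 1.05. In the high-numbered set 0 genes were called by edgeR, with 4.71% of all genes called higher and 6.47% lower, and the median was 0.07. There 8 had an unadjusted p under 0.05, with no share of all genes at that threshold given here. PCNA differed by 1.37 within the low-numbered set (adjusted p = 0.000243) and 0.43 within the high-numbered set (adjusted p = 0.0804). The test of the difference between the sets, added after the values within sets had been seen, called 16 of 45 genes as lower in the high-numbered set (2.2% of all genes, and 3.86% in either direction) and none as higher. Leaving out 1 library moved that count between 1 (without BRG1 2) and 33 (without double 4), with no share of all genes given for those fits. RRM2, the small subunit of ribonucleotide reductase, shows the split with 332, 328, 180.2 and 296 in double libraries, 111, 81.8, 203 and 220.5 in BRG1 libraries, 256, 273 and 222 in BRM libraries, against 203, 194, 287 and 274 in NS libraries (CPM). In the low-numbered set its double libraries were above NS and BRG1 libraries, while in the high-numbered set double library 3 was below and double library 4 above BRG1 libraries. The difference between sets for RRM2 was -1.60 ± 0.29 (SE, adjusted p = 0.00914) on the log2 scale, high-numbered minus low-numbered.

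After BRG1 knockdown genes fell in both sets, and more were called in the low-numbered one. Within the low-numbered set 42 genes fell and CCNE1 rose, where 18.1% of all genes fell and 20.3% rose, with a median of -1.31. Within the high-numbered set 24 fell and none rose, where 12.8% fell and 13.1% rose, with a median of -0.67. The difference between the sets was called for MCM3, 1.22 ± 0.26 (SE, adjusted p = 0.0345), and PCNA, 0.81 ± 0.20 (SE, adjusted p = 0.0477), with 2.49% of all genes called in either direction, 1.54% higher and 0.951% lower (edgeR, high-numbered minus low-numbered). Of the 45 genes 26 had an unadjusted p under 0.05 in it, 25 higher and 1 lower. The share of all genes at that unadjusted threshold is not given here, so this count has no background beside it. Neither the MCM3 nor the PCNA call held without any 1 of the BRG1 or NS libraries or double 1 or 2, and PCNA was also lost without BRM 3. CCNE1 had 44.2, 44.7, 33.9 and 31.8 in BRG1 libraries, 29.3, 28.6 and 40.1 in BRM libraries, 32.2, 32.6, 35.1 and 31.8 in double libraries, against 28.8, 28.2, 33.1 and 34.4 in NS libraries (CPM). BRG1 libraries 1 and 2 were the highest of all for CCNE1, and BRG1 libraries 3 and 4 were in the NS range. For double against NS, 18 genes were called in the low-numbered set (29% of all genes), of which 15 fell and 3 rose (CCNE2, RRM2 and E2F1), where 14.6% of all genes fell and 14.4% rose, and 21 fell and none rose in the high-numbered set, where 17.2% fell. The difference between sets was called for none of the 45 in that comparison by edgeR (3.71% of all genes in either direction, 1.14% lower and 2.56% higher). At an unadjusted p under 0.05 there were 9, all lower in the high-numbered set, again with no share of all genes at that threshold.

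**Figure D4:**
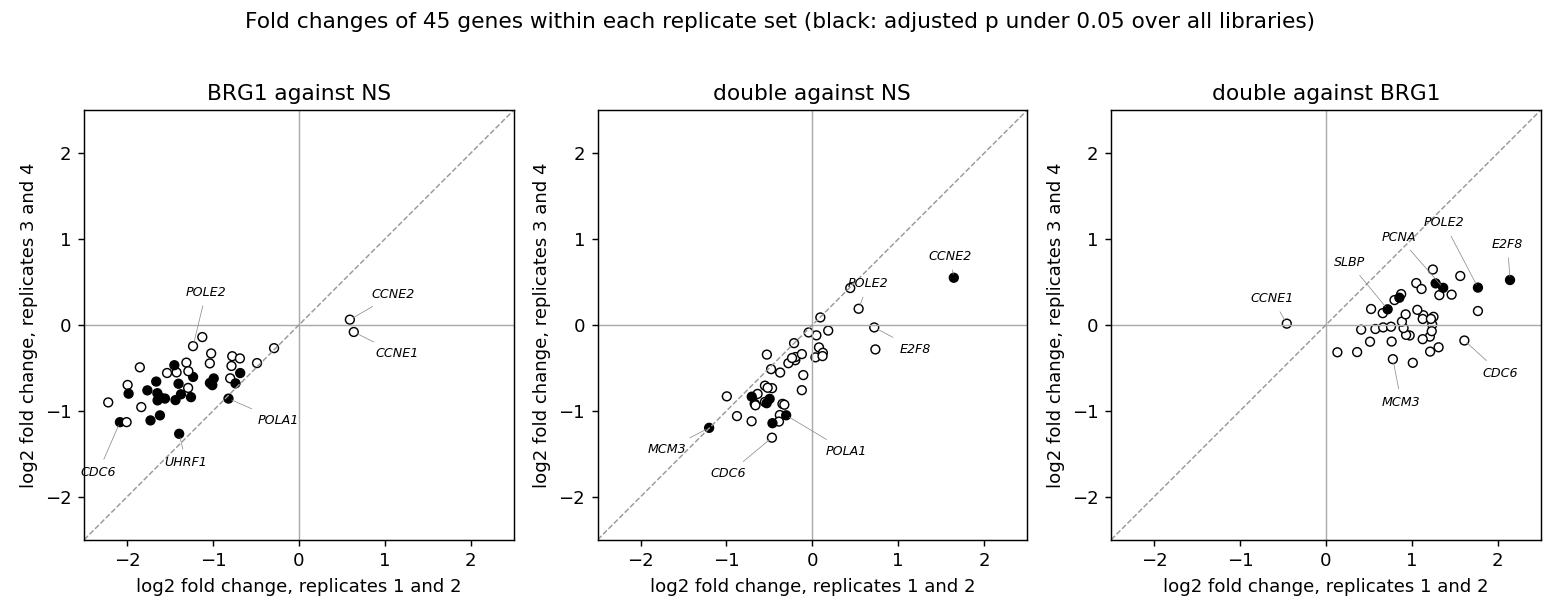
Each point is 1 of the 45 genes. The x axis gives its log2 fold change within replicates 1 and 2, the y axis that within replicates 3 and 4, and the dashed line marks equal change. For BRG1 against NS most points sit above the line on the left (medians -1.31 and -0.67). There POLA1 lies just below the line, and CCNE1 and CCNE2 lie below it on the right. For double against NS the points are mostly on or below the line (-0.33 and -0.58). For double against BRG1 they are mostly to the right near 0 on the y axis (1.05 and 0.07). Black points were called over all libraries.

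Libraries of the same replicate number deviated together in BRG1 against NS, double against NS and BRG1 against BRM, and blocking on the number gave more calls. These deviations also hold the difference between the replicate sets, so pairing by number cannot be told from the set. With the block 40 genes fell for BRG1 against NS (16.8% of all genes), the exceptions being CCNE1, CCNE2, PRIM2, POLE2 and RRM2. For double against NS 19 fell and 1 rose (16.3% and 19.3% of all genes). BRG1 against BRM gave 37 lower genes with the block (24.4% of all genes).

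Set directly against BRM knockdown, BRG1 knockdown had 23 lower genes and no higher one, where 16.7% of all genes were lower and 17.2% higher, and a median of -0.94, against -0.02 over all genes. The smallest adjusted p values belonged to TYMS (-1.16 ± 0.17 SE, adjusted p = 0.000148), UNG (-1.24 ± 0.20 SE, adjusted p = 0.000214), RRM1 (-1.06 ± 0.19 SE, adjusted p = 0.000548), PCNA (-1.14 ± 0.20 SE, adjusted p = 0.000551) and POLE (-1.39 ± 0.28 SE, adjusted p = 0.00137), all from edgeR. RRM1 is the large subunit of ribonucleotide reductase. RRM1 had 60.3, 51.9, 81.3 and 79.9 CPM in BRG1 libraries, 153, 154 and 121 CPM in BRM libraries, 102, 105, 70.4 and 96.3 CPM in double libraries, against 118, 105, 122 and 119 CPM in NS libraries. BRG1 libraries were below all BRM and NS libraries. The ligase LIG1 had 23.2, 19.2, 51.1 and 58.4 in BRG1 libraries, 82.8, 87.95 and 157 in BRM libraries, 47.2, 53.7, 63.5 and 109 in double libraries, against 53.5, 50.4, 94.9 and 82.2 in NS libraries (CPM). It was lower in every BRG1 library than in any BRM library, with a log2 fold change of -1.52 ± 0.41 (SE, adjusted p = 0.00983), and not called without BRM 3 (-1.17). With any 1 library left out 17 of the 23 calls stayed. The others were POLE2, lost without BRM 1 (-0.72), E2F8 without BRG1 1 or BRM 1 (-1.09 to -1.06), RFC3 without BRG1 2 or BRM 1 (-0.52 to -0.47), ORC6 without BRG1 1, BRG1 2 or BRM 1 (-0.91 to -0.62), LIG1, and MCM3, lost without 12 of the 15 libraries (-0.88 to -0.59). Within the sets 41 genes were lower and 1 higher in the low-numbered set (24.3% and 25.2% of all genes) and 10 were lower in the high-numbered set (15.1%).

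Double knockdown against BRM knockdown gave 3 lower genes, UNG (-0.90 ± 0.19 SE, adjusted p = 0.00478), TYMS (-0.59 ± 0.17 SE, adjusted p = 0.0288) and RRM1 (-0.61 ± 0.19 SE, adjusted p = 0.0350), and 1 higher, CCNE2 (1.53 ± 0.44 SE, adjusted p = 0.0250), by edgeR. Of all genes 9.74% were lower and 9.32% higher, and the median of the 45 was -0.40, against -0.02. In 15 of the 45 genes every double library was below every BRM library (14.3% of all genes), UNG, TYMS and RRM1 among them. UNG was called with any 1 library left out, TYMS was lost without BRM 2, BRM 3 or any double library (-0.64 to -0.45), RRM1 without BRM 1, BRM 2 or double 1, 3 or 4 (-0.65 to -0.48), and CCNE2 without BRM 2, BRM 3, double 1 or double 2 (1.22 to 1.37). Within the low-numbered set 19 genes were lower and 1 higher (16.3% and 14.6% of all genes), and within the high-numbered set 5 were lower (11.8%). The departure from additivity, taken as the log2 effect of the double knockdown less the sum of the effects of the BRG1 and BRM knockdowns, was called by edgeR for 0 of 45 genes (0.499% of all genes in either direction, 0.103% above 0). At an unadjusted p under 0.05 there were 7, all above 0, and DESeq2 called 2. Shares of all genes at an unadjusted p under 0.05 and with DESeq2 are not given here, so such counts have no background beside them. The median departure over the 45 was 0.53, against -0.05 over all genes. The largest value among the 7 was 1.19 ± 0.48 (SE, adjusted p = 0.317) for RFC4, and SLBP had the smallest adjusted p, at 0.78 ± 0.20 (SE, adjusted p = 0.107). Within the low-numbered set 26 genes were above 0 at an adjusted p under 0.05 (5.22% of all genes), and within the high-numbered set none was (0.438%), with 7 at an unadjusted p under 0.05.

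Of 38 further replication genes 17 fell and 2 rose after BRG1 knockdown, with 9.97% of all genes lower and 12.5% higher, and the median was -0.60. DUT, which removes dUTP, changed by -1.07 ± 0.18 (SE, adjusted p = 0.000712) for BRG1 against NS in edgeR, and the clamp loader subunit RFC1 by -0.92 ± 0.18 (SE, adjusted p = 0.00202). For double knockdown 5 of the 38 fell and 1 rose (9.9% and 11.8% of all genes), and for BRM knockdown 3 fell and none rose (6.26% and 7.66%), so that the shares of lower genes were near those of all genes.

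Of 20 other G1/S regulators 9 fell and 2 rose after BRG1 knockdown (median -0.65), where 9.97% of all genes fell and 12.5% rose. CDK6, a cyclin D kinase, averaged 56.6 ± 11.01 CPM in BRG1 libraries, 101 ± 35.8 CPM in BRM libraries and 76.1 ± 10.7 CPM in double libraries, against 183 ± 18.95 CPM in NS libraries (SD). It fell in all 3 groups, with log2 fold changes of -1.69 ± 0.21 (SE, adjusted p = 6.8e-05) for BRG1, -0.86 ± 0.23 (SE, adjusted p = 0.0203) for BRM and -1.26 ± 0.21 (SE, adjusted p = 0.000591) for double (edgeR). TFDP1, the dimer partner of E2F proteins, changed by -1.08 ± 0.15 (SE, adjusted p = 0.000176) after BRG1 knockdown and by -1.15 ± 0.15 (SE, adjusted p = 0.000116) after double knockdown, and SKP2, which targets a CDK inhibitor for destruction, by -1.47 ± 0.23 (SE, adjusted p = 0.000407) and -0.77 ± 0.22 (SE, adjusted p = 0.0239). The repressor E2F7 changed by -1.94 ± 0.26 (SE, adjusted p = 0.000131) after BRG1 knockdown and was higher in double than in BRG1 libraries, by 1.32 ± 0.26 (SE, adjusted p = 0.00436). For double against NS 4 of the 20 fell and none rose (9.9% and 11.8% of all genes), and for BRM against NS 2 fell and none rose (6.26% and 7.66%).

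Of 13 tested CDK inhibitors and pocket proteins 5 fell and 3 rose after BRG1 knockdown (9.97% and 12.5% of all genes), 1 fell and 3 rose after double knockdown (9.9% and 11.8%), and 1 rose after BRM knockdown (7.66%). The 1 lower gene after double knockdown and the 1 higher gene after BRM knockdown were near the shares of all genes. The inhibitor CDKN2C averaged 4.81 ± 2.75 CPM in BRG1 libraries and 19.3 ± 2.26 CPM in NS libraries (SD), a change of -2.001 ± 0.36 (SE, adjusted p = 0.00110) in edgeR, and the inhibitor CDKN1B changed by -1.07 ± 0.20 (SE, adjusted p = 0.00131). RBL1, a pocket protein, changed by -1.16 ± 0.21 (SE, adjusted p = 0.00131). CDKN1A, a p53-induced inhibitor singled out after its values had been seen, averaged 415 ± 25.7 CPM in BRG1 libraries, 284 ± 77.7 CPM in BRM libraries and 439 ± 179 CPM in double libraries, against 179 ± 7.82 CPM in NS libraries. Its change was 1.21 ± 0.25 (SE, adjusted p = 0.00300) for BRG1, 0.67 ± 0.27 (SE, adjusted p = 0.115) for BRM and 1.29 ± 0.25 (SE, adjusted p = 0.00202) for double.

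Of 40 G2/M and mitosis genes 23 fell and none rose after BRG1 knockdown, where 9.97% of all genes fell and 12.5% rose, with a median of -1.004. TOP2A, the mitotic topoisomerase, averaged 124 ± 40.4 CPM in BRG1 libraries and 195 ± 41.6 CPM in double libraries, against 425 ± 38.3 CPM in NS libraries (SD), and changed by -1.78 ± 0.25 (SE, adjusted p = 0.000210) and -1.12 ± 0.25 (SE, adjusted p = 0.00492) in edgeR. The proliferation marker MKI67 changed by -1.83 ± 0.33 (SE, adjusted p = 0.00132) and -1.28 ± 0.33 (SE, adjusted p = 0.0117) in the same comparisons. After double knockdown 3 of the 40 fell (9.9% of all genes), after BRM knockdown 1 (6.26%), and none rose in either, so that neither count exceeded the share of all genes. The median of the 40 also differed between the sets. It was -1.36 in the low-numbered and -0.83 in the high-numbered set for BRG1 against NS, and -0.13 and -0.79 for double against NS. For double against BRG1 it was 1.16 and -0.02. In the authors' deposited tables, 25 of the 45 replication genes were lower and none higher for BRG1 against NS at an adjusted p under 0.05, where 11.9% of all genes with an adjusted p were lower and 12.7% higher. In the authors' deposited tables none was called for BRM (8.82% and 9.34% of all genes), and 9 were lower and 1 higher for double knockdown (10.7% and 11.6%).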

How the data were processed

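mRNA-seq libraries (total RNA, mRNA-seq kit) of HepG2 cells were processed by the authors with kallisto and DESeq2 on GRCh38, per the submitters' processing notes, which give no versions. The deposited table holds raw counts per gene, and the authors' deposited comparison tables hold log2 fold changes and adjusted p-values. The counts were refitted with edgeR 4.0.16 in R 4.3.3 (limma 3.58.1): TMM scaling, filterByExpr by group, 1 robust quasi-likelihood fit of 15 libraries and Benjamini-Hochberg adjustment over 14621 genes. CPM uses TMM-scaled totals. Columns were assigned by the labels' descriptions.

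The 45 genes, the other lists and the replicate sets were chosen with earlier results of these data known. All 45 could be named. Values in every library were to be given for the smallest adjusted p of each role for BRG1 and double against NS, and for up to 5 genes in each direction of the other comparisons. CDC6, MCM2, POLA1, LIG1, RRM2 and CCNE1 were added after their values were seen. Other lists gave up to 4 called genes each. Same-numbered libraries deviated together, with every correlation over 0.1, for BRG1 against NS (0.427 to 0.565), double against NS (0.179 to 0.454) and BRG1 against BRM (0.104 to 0.532), and blocked values are given there. Each deviation was taken from the mean of the whole group over both sets, so it also holds the difference between sets. Libraries with different numbers in a set were not compared, so pairing by number cannot be told from the set. What same-numbered libraries have in common is not given in the labels. The fit was tested on simulated data. DESeq2 1.42.0 and other scalings, filters and left-out libraries were the alternatives. 1 gene of the other lists is not reported here.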

Additional observations from a re-analysis of the deposited data

Results flagged for a closer look

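In the double knockdown group, 1 library lay far from the other 3 for 6 genes (a wide gap to the nearest library, relative to the group's range). The rule flags about 1 in 20 groups by chance where the values come from a single normal distribution, and 6 of 135 were found. Each group here holds libraries of both replicate sets, so that rate may not apply. Double library 4 was high for CDT1 (189 CPM, others 49.5 to 73.4), MCM4 (192 CPM, others 124 to 134), MCM7 (353 CPM, others 149.8 to 184), RFC2 (50.3 CPM, others 36.4 to 37.9) and CHAF1B (31.0 CPM, others 22.1 to 22.8). Double library 3 was low for CDC6 (37.9 CPM, others 58.3 to 59.0).

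The change after BRG1 knockdown against NS differed between the replicate sets for MCM3 (1.22) and PCNA (0.81), on the log2 scale as high-numbered minus low-numbered, by edgeR's interaction test. The difference between double and BRG1 libraries was lower in the high-numbered set for 16 genes: CDC6 (-1.78), RRM2 (-1.60), CDC45 (-1.56), GINS2 (-1.51), MCM10 (-1.44), CHAF1A (-1.34), POLE2 (-1.33), MCM6 (-1.30), DTL (-1.22), MCM3 (-1.17), ORC6 (-1.15), FEN1 (-1.09), PRIM1 (-0.93), PCNA (-0.92), RRM1 (-0.84) and GINS1 (-0.78).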

How the results depend on the processing

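Counts of called genes among the 45 depended most on how the replicate sets were treated. With the set as a term they were 41 for BRG1 against NS, 7 for BRM against NS, 21 for double against NS, 20 for double against BRG1, 23 for double against BRM, 39 for BRG1 against BRM and 3 for the departure from additivity. Of all genes it called, in the same order, 18.2%, 13.7%, 17.6%, 13.7%, 20.2%, 26.4% and 4.84% lower. It called 21%, 18.3%, 21%, 11.8%, 18.9%, 26% and 2.42% higher. With the replicate block the counts were, in the same order, 40, 7, 20, 15, 20, 37 and 1. The shares of all genes lower were 16.8%, 12.5%, 16.3%, 12.3%, 18.4%, 24.4% and 2.99%. Those higher were 19.5%, 15.9%, 19.3%, 9.99%, 17.9%, 25% and 1.34%. The low-numbered set alone gave 43, 9, 18, 39, 20, 42 and 26, and the high-numbered set alone gave 3 for BRM against NS, 21 for double against NS, 0 for double against BRG1 and 10 for BRG1 against BRM. Without the filter on low counts, 5 were called for double against NS, 2 for double against BRG1, 2 for double against BRM, and for the differences between sets 16 (BRG1 against NS), 2 (double against NS) and 27 (double against BRG1). DESeq2 gave 7 for double against BRM and 2 for the departure from additivity. For the sets alone, the shares of all genes stand with the results above. For the fits without the filter and with DESeq2 they are not given here, so those counts have no background beside them. The cause of the shifts in the counts was not tested.

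Leaving out 1 library gave 21 to 31 for BRG1 against NS, 0 to 1 for BRM against NS (1 without BRM 1), 3 to 14 for double against NS (3 without double 3, NS 3 or NS 4, 5 without double 1 or 2, 14 without BRG1 2), 1 to 8 for double against BRG1 (1 without double 2, 2 without BRG1 1, BRG1 2 or double 1, 3 without double 4), 1 to 6 for double against BRM (1 without double 1, 2 without BRM 2, BRM 3, double 2 or double 3), 20 to 30 for BRG1 against BRM and 0 to 0 for the departure from additivity. For the differences between sets it gave 0 to 19 (BRG1 against NS), 0 to 6 (double against NS) and 1 to 33 (double against BRG1). The first was 0 without any BRG1 or NS library, double 1 or double 2, 1 without BRM 3, 12 without BRM 1 or BRM 2 and 19 without double 3 or double 4. The next was 1 without BRM 1, 2 without BRM 2 and 6 without double 4. The last was 1 without BRG1 2, 3 without BRG1 4 or double 1, 4 without double 2, 5 without double 3, 6 without BRG1 3, 8 without NS 1, 9 without BRG1 1, 10 without NS 3 or NS 4 and 33 without double 4. The shares of all genes called with 1 library left out are not given here, so these counts have no background beside them. No called gene changed direction under any alternative. Of single-gene calls, 24 were lost in the high-numbered set alone, 2 in the low-numbered set alone and 12 without the filter, and 236 over all left-out libraries. None of the 64 calls between groups was lost with DESeq2, the set term or the block, which were not run on the differences between sets, and none of all 82 calls was lost with RLE scaling. The BRM group has 3 libraries, 1 of them in the high-numbered set, so a call there assumes that it varies like the others. Libraries of 1 group and set differed by more than counting error, with a chi-square per degree of freedom of 5.35 to 68.9, and by 103 to 236 between sets.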
